A study of Mus musculus with 3 samples.

Results

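The nuclear receptor family was described here through 45 mouse genes, out of 21883 protein-coding genes placed on the nuclear chromosomes, in maps of the histone mark H3K27me3 from mouse kidney. The genes were listed by family name, with earlier results of these data known, and placed by their GRCm38 gene positions. A receptor gene counted as marked when a deposited H3K27me3 peak overlapped the 2 kb around one of its annotated ends, and a second count took in the gene body with its flanks of 2 kb. The 5 receptors active in kidney, Nr3c1, Nr3c2, Hnf4a, Ppara and Vdr, were set beside the other 40, and that activity is background knowledge which was not measured in these samples. The other 40 were not shown to be inactive in kidney.

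The study compared kidney of C57BL/6 mice treated with ADA, as the labels write the agent, with kidney of untreated C57BL/6 mice, by chromatin immunoprecipitation and sequencing with a Cell Signaling Technology antibody to H3K27me3. Each group had 1 library. Input DNA could enter only through the authors' peak calling, where per the file headers each library had its own. The labels, however, give a single input sample, from untreated kidney. The background in each list was constant, so peaks were not adjusted for input signal at each place. The sources used here do not give the dose and duration of treatment, the age and sex of the mice, or how many mice were pooled. The series title also names pod-SAHH-/- mice, which were not analysed here, and no genotype is given for the kidneys compared.

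Nuclear receptors are transcription factors, many of which are switched by a small lipophilic ligand such as a steroid, a retinoid, thyroid hormone, a fatty acid or a bile acid. Many bind DNA as pairs with a retinoid X receptor, recruit coactivator or corepressor complexes, and in kidney govern salt handling, mineral balance, fatty acid oxidation and tubular identity. H3K27me3 is placed by the Polycomb complex PRC2 and is known as a mark of repressed genes, above all developmental genes whose promoters are rich in CG dinucleotides. A peak here records fragment density in whole kidney, so a strong mark in a few cells and a weak mark in many cannot be told apart.

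The sequences below were chosen to show the CG content of marked and unmarked starts. Each gives the 250 bases before a transcription start of the RefSeq promoter table (GRCm38.p6), read along the gene's own strand, with every CG dinucleotide in capitals. The first 3 starts lay inside a peak in both libraries. They belong to Ppara (chr15:85735526-85735775, plus strand), Nr1d2 (chr14:18239107-18239356, minus strand) and Nr2c2 (chr6:92092183-92092432, plus strand). The last 2 starts lay in no peak of either library, and belong to Hnf4a (chr2:163506607-163506856, plus strand, the first of 2 listed starts) and Nr1h4 (chr10:89506659-89506908, minus strand).
Ppara: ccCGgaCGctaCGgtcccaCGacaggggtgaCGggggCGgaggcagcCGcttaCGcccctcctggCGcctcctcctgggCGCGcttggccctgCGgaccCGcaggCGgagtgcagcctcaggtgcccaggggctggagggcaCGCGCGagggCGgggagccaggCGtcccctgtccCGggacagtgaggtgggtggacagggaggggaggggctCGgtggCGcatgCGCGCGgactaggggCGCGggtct
Nr1d2: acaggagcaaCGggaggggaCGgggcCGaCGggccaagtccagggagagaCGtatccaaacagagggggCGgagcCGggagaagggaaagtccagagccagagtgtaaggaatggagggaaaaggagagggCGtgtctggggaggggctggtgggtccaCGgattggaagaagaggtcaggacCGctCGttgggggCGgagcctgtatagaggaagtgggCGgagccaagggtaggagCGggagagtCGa
Nr2c2: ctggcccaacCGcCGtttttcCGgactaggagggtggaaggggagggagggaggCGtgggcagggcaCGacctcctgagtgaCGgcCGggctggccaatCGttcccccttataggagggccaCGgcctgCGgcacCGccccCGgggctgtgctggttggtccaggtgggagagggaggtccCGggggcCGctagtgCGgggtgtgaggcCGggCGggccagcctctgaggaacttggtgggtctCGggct
Hnf4a: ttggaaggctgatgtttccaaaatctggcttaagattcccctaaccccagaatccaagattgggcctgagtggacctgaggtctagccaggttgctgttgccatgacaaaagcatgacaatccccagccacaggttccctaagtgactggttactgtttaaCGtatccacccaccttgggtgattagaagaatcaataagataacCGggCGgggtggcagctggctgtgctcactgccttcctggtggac
Nr1h4: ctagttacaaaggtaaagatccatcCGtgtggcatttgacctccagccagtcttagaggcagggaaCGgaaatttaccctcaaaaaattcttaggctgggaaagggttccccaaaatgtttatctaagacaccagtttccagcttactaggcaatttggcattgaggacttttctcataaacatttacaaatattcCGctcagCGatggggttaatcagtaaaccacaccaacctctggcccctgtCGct
The marked stretches held 27 CG dinucleotides in Ppara, 15 in Nr1d2 and 18 in Nr2c2. The unmarked stretches held 3 in Hnf4a and 5 in Nr1h4. The count over all listed receptor starts is given further on.

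The ADA-treated list held 17612 peaks from 20602041 ChIP fragments and the untreated list 8074 peaks from 18849785. The smallest pileup, the number of fragments over a peak averaged across its width, was 10 in both lists, against a constant background of 3.24 fragments in both. A receptor without a listed peak was therefore below this limit and was not shown to lack the mark. Median pileup over all peaks was 11.61 (ADA-treated) and 10.72 (untreated), and 10642 ADA-treated peaks but 518 untreated peaks had a caller q of at most 5%. With the list lengths this far apart and 1 library a group, no difference between treated and untreated kidney was tested. Shares carry exact binomial 95% intervals, which treat genes as independent and cover counting error only. Of 10 kidney epithelium markers, 5 had a peak near an end in ADA-treated kidney and 2 in untreated kidney, beside 46.4% and 22.8% of all genes. Of 7 blood and vessel markers, 2 had one in ADA-treated kidney and 0 in untreated kidney, a count that allows a share of up to 41%. For both marker lists the intervals held the share of all genes in each library. Marker peaks do not measure how many cells of a type were present.

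Peaks near the ends of receptor genes were listed for 30 of 45 genes in ADA-treated kidney, which is 66.7% (51.0 to 80.0%), beside 46.4% of all protein-coding genes. In untreated kidney 18 receptors were marked, 40% (25.7 to 55.7%), beside 22.8% of all genes. In each list the lower bound of the interval was above the background share, but genes chosen by name are not a random draw and no test of the list was made. The untreated share rested on weak peaks. With a q of at most 5%, 1 receptor was marked there, beside 2.12% of all genes. Other settings are given in the last section. Counts at transcription starts, given further on, depended on whether a peak had to cover the start. Marked in both lists were 15 receptors, 33.3% (20 to 49.0%), beside 20.6% of all genes. A further 15 had a peak in ADA-treated kidney alone, 33.3% (20 to 49.0%), beside 25.9%, and 3 in untreated kidney alone, 6.67% (1.4 to 18.3%), beside 2.17%. For receptors marked in both lists, and for each of these single-list classes, the interval held the background share. The remaining 12 had no peak near an end in either list, 26.7% (14.6 to 41.9%), beside 51.4% of all genes.

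**Figure D1:**
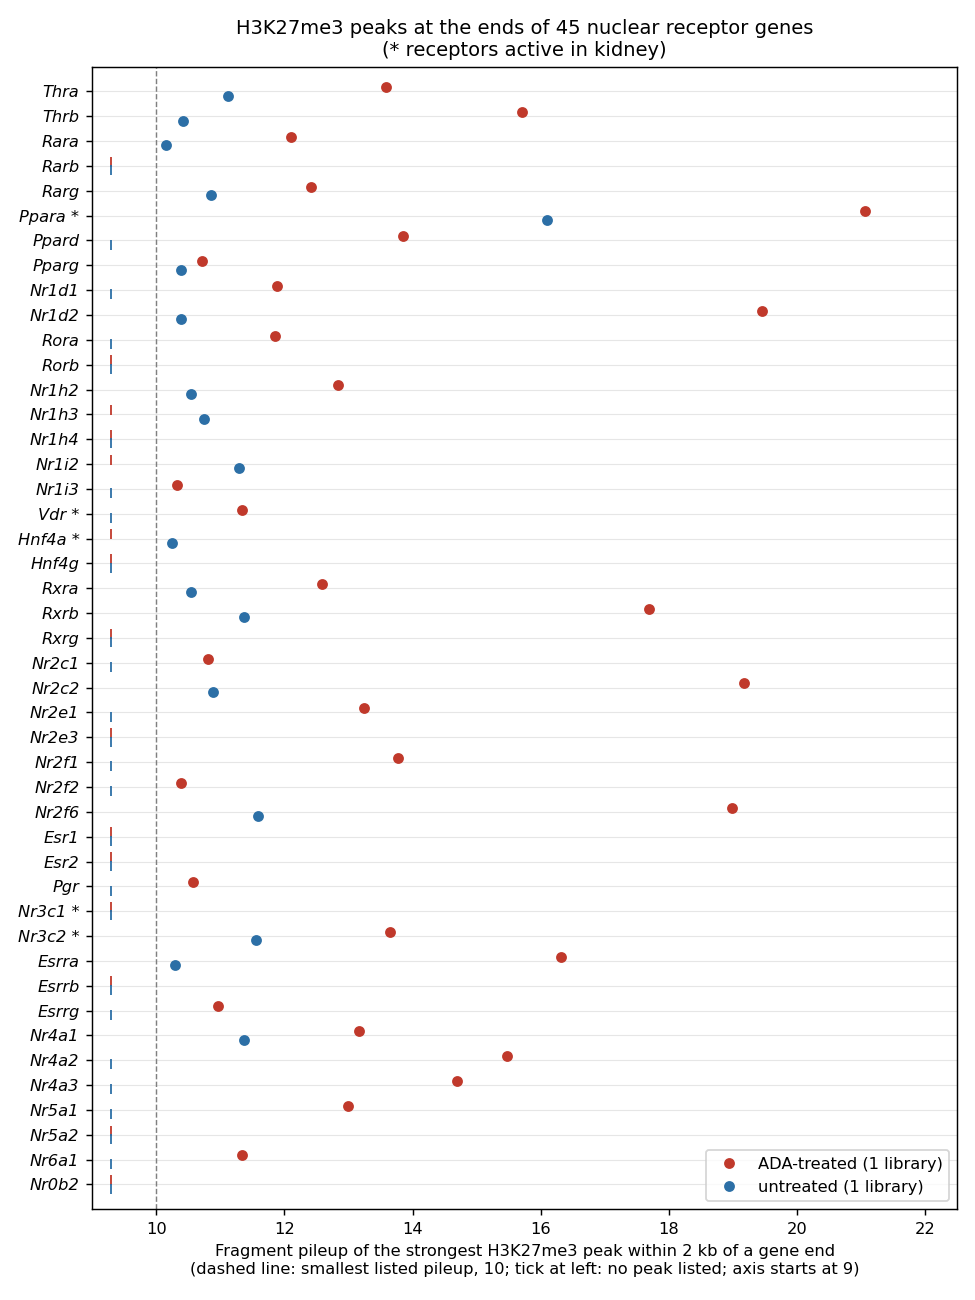
Fragment pileup of the strongest H3K27me3 peak within 2 kb of an end of each of the 45 receptor genes, with red points for the ADA-treated library and blue points for the untreated library, 1 library each, and a tick at the left where no peak was listed. Ppara, marked with an asterisk as active in kidney, stood highest in both libraries, at 21.06 and 16.1.

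The strongest peak near a receptor end in either library lay over the start of Ppara, the fatty acid receptor that drives genes of fatty acid oxidation in kidney tubules. Its pileup was 21.06 in ADA-treated kidney (5.21-fold over background, rank 156 of 17612 by caller p) and 16.1 in untreated kidney (4.03-fold, rank 31 of 8074). The ADA-treated peak spanned chr15:85734712-85736105 and enclosed the untreated peak at chr15:85735269-85735986. Ppara was also the one receptor with an end peak of pileup 12 or more in untreated kidney, where 4.57% of all genes had such a peak. In ADA-treated kidney 20 receptors passed that level, beside 30.9% of all genes. The PPAR relatives were marked more weakly. Ppard, the broadly expressed PPAR, had an end peak of 13.85 in ADA-treated kidney and none in untreated kidney, while 6 and 2 peaks lay over the whole gene. Pparg, the adipogenic PPAR, had end peaks of 10.71 and 10.38, both close to the smallest value listed.

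The clock receptors are the repressors Nr1d1 and Nr1d2 (REV-ERB alpha and beta) and the activators of the ROR group. Nr1d2 had the highest ratio between the libraries of any overlapping receptor pair, 1.87, where pairs over the genome reached 2.66. Its peak across the start had a pileup of 19.45 in ADA-treated kidney (4.82-fold, rank 424) and 10.38 in untreated kidney (2.68-fold, rank 5522). Both peaks lay at the same place, chr14:18238121-18239503 and chr14:18238041-18239251. Nr1d1 reached 11.88 in ADA-treated kidney alone. Rora had a peak of 11.86 in ADA-treated kidney that began 98 bp from its listed start, and no peak in untreated kidney. Rorb had no peak over its whole length in either library.

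Thyroid hormone and retinoic acid receptors were marked in both lists at 4 of 5 genes, beside 20.6% of all genes, with too few genes to compare the shares. Thrb, a thyroid hormone receptor, had overlapping peaks over a listed start with pileups of 15.7 and 10.42 in ADA-treated and untreated kidney. Thra, its paralogue, had overlapping peaks of 13.58 and 11.12 that lay inside the gene, 745 and 952 bp from an end. The retinoic acid receptor Rarg was marked at opposite ends, with 12.42 over one end in ADA-treated kidney and 10.86 near the other end in untreated kidney, where Itgb7 also ends within 2 kb. Inside Rarg, however, the libraries held overlapping peaks of 14.81 and 10.55. The untreated peak of this pair covered a listed start, and the ADA-treated peak lay 125 bp from it. Rara had end peaks of 12.11 and 10.15, and higher peaks inside the gene. Rarb, the third retinoic acid receptor and 651493 bp long, had no peak.

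Rara and Rxra stood out for the number of peaks across the gene. Rara held 10 peaks in ADA-treated kidney and 6 in untreated kidney, covering 35.6% and 24.1% of the gene. Only 45 and 32 of all 21883 genes held as many peaks, Rara included. The strongest Rara pair lay 13057 and 14392 bp from the nearest end, with pileups of 16.29 and 12.31. Rxra, a shared partner of many receptors, held 11 peaks in ADA-treated kidney and 7 in untreated kidney, covering 15.2% and 6.58% of the gene, and 31 and 19 genes held as many. Having 3 or more peaks was seen in 10 receptors in ADA-treated kidney, beside 6.32% of all genes, and in 3 receptors in untreated kidney (Rara, Rxra and Hnf4a), beside 1.58%.

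Paralogous receptors sit together on chromosomes 11 and 14, and the groups differed in their marking. On chromosome 11, Thra, Nr1d1 and Rara span 234 kb and held 16 ADA-treated and 7 untreated peaks. Thra and Nr1d1 overlap by 1075 bp at their ends and share 2 of the ADA-treated peaks, so those peaks belong to neither gene alone. On chromosome 14, Rarb, Thrb and Nr1d2 span 1810 kb and held 2 peaks in each library, at a start of Thrb and at the start of Nr1d2. The dense group was thus the short one, and the members of a group are not independent observations.

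**Figure D2:**
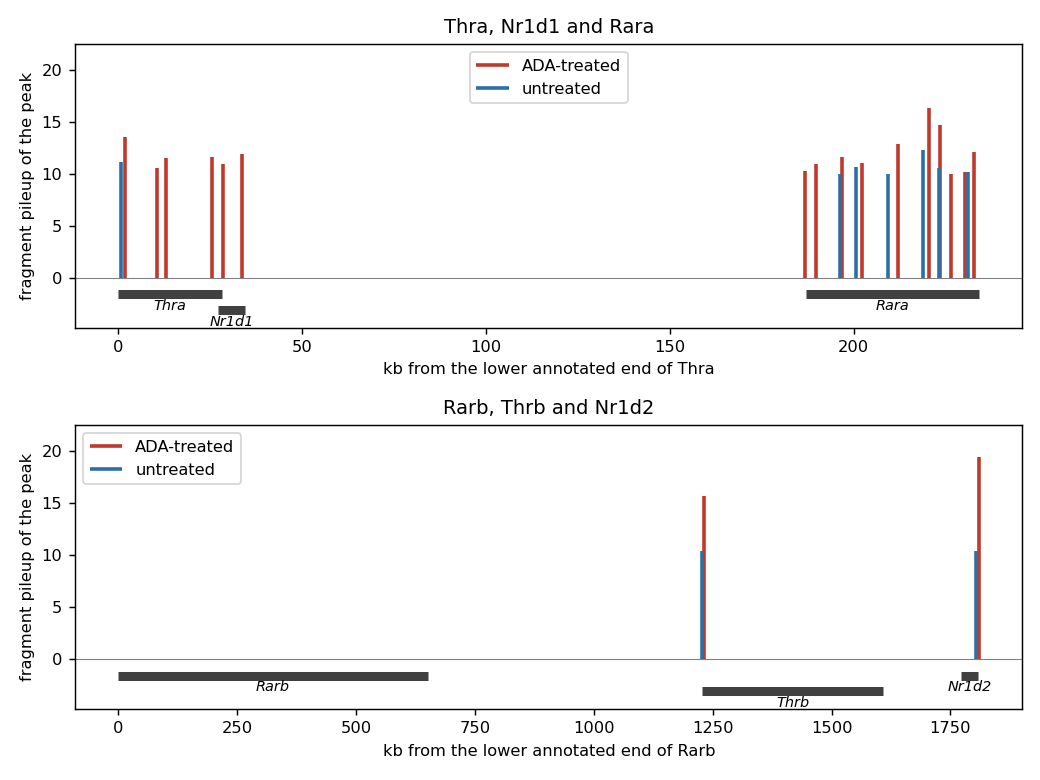
Position along the chromosome, in kb from the lower annotated end of the first gene, of every listed peak over Thra, Nr1d1 and Rara (upper panel) and Rarb, Thrb and Nr1d2 (lower panel), with height giving fragment pileup and dark bars the genes. Red and blue lines are moved slightly apart so that overlapping ADA-treated and untreated peaks can be seen, and the peaks crowd over Rara but lie at a single place in Thrb and in Nr1d2.

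The receptors for sterols, bile acids, foreign compounds and vitamin D were split between the lists. Nr1h2, the liver X receptor beta that senses oxysterols, had an ADA-treated peak of 12.83 across its start and an untreated peak of 10.54 at the other end, near Pold1, where the ADA-treated list had 10.74. Nr1h3, the liver X receptor alpha, had a peak of 10.74 in untreated kidney alone, 958 bp outside the gene and near Madd. Nr1i2, the pregnane X receptor for foreign compounds, likewise had 11.29 in untreated kidney alone, 543 bp outside the gene. Nr1i3, the constitutive androstane receptor, had 10.33 in ADA-treated kidney alone, 1793 bp from an end and near Tomm40l and Apoa2. None of the latter 3 peaks lay inside the gene itself. Nr1h4, the bile acid receptor, had no peak in either list.

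HNF4 receptors hold epithelial identity in liver and kidney tubules, and retinoid X receptors pair with many other family members. Hnf4a had no peak in ADA-treated kidney and 3 weak peaks in untreated kidney, 10.26 and 10 inside the gene and 10.24 at 678 bp outside it. None of the 3 overlapped a listed start, and Hnf4g had no peak. Rxrb had a broad ADA-treated peak of 6352 bp, chr17:34027082-34033433, with a pileup of 17.69 and an untreated peak of 11.37 within it. The Rxrb peak also reached the ends of H2-Ke6 and Slc39a7, so it cannot be given to Rxrb alone. Rxra had end peaks of 12.59 and 10.54. Rxrg had a single ADA-treated peak of 12.33 inside the gene, and none near an end.

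The orphan receptors of the second subfamily held several of the strongest peaks. Nr2c2, the testicular receptor TR4, had a pileup of 19.17 in ADA-treated kidney (4.76-fold, rank 476) and 10.88 in untreated kidney (2.80-fold, rank 3442), in overlapping peaks across its start. Nr2f6, a member of the COUP group of repressors, had 18.99 in ADA-treated kidney (4.71-fold, rank 462) and 11.59 in untreated kidney (2.97-fold, rank 1757). Its ADA-treated peaks covered 60.1% of the 7850 bp gene, against 19% in untreated kidney, and the strongest also lay near Ushbp1. The COUP factor Nr2f1 had a peak of 13.77 across an end in ADA-treated kidney, and in untreated kidney a peak of 10.64 that lay 3484 bp from an end, outside the window, and 1060 bp from a listed start. Its relative Nr2f2, needed for vein identity, had 10.39 in ADA-treated kidney alone, 1172 bp outside the gene. Nr2e1, a neural stem cell repressor, had 13.24 and Nr2c1 10.81 in ADA-treated kidney, with no peak in untreated kidney. Nr2e3, a photoreceptor gene, had 10.68 inside the gene in ADA-treated kidney alone.

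Of the sex steroid receptors, Esr1 and Esr2, the estrogen receptors, had no peak over the whole gene in either library, a state shared by 46.5% of all genes. Pgr, the progesterone receptor, had one weak ADA-treated peak of 10.57, 1758 bp inside an end. The estrogen-related receptors, which are orphan regulators of mitochondrial genes, were marked differently. Esrra had 16.31 over its start in ADA-treated kidney (4.08-fold), near Catsperz, and an untreated peak of 10.29 at the opposite end, near Prdx5 and Trmt112, where ADA-treated kidney had 12.33. Esrrg had 10.97 in ADA-treated kidney alone. Esrrb had no end peak, but inside the gene, 18 and 623 bp from its second listed start, it held overlapping peaks of 11.57 in ADA-treated and 12.53 in untreated kidney. This was the pair with the lowest ADA-treated to untreated ratio among the receptors, 0.923.

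The NR4A receptors, immediate early genes that act without a known classical ligand, had an end peak at each of the 3 genes in ADA-treated kidney (29.2 to 100%, an interval that holds the 46.4% of all genes). Nr4a2 had 15.48 and Nr4a3 14.7 across an end in ADA-treated kidney, with no end peak in untreated kidney. Nr4a1 had overlapping peaks of 13.17 and 11.37 across one end, and 4 and 2 peaks over the gene. The end peaks lay 12039 and 12354 bp from its listed start, which was covered by a peak of 12.6 in ADA-treated kidney alone. Inside Nr4a2 the libraries shared a weak pair, at 10.34 in ADA-treated and 10.87 in untreated kidney. Among the other orphans, Nr5a1, the adrenal and gonadal steroidogenic factor, had overlapping peaks of 12.99 and 11.13 that were 1897 and 3601 bp from an end, so that it counted as marked in ADA-treated kidney alone. Nr6a1, its neighbour 8.83 kb away on chromosome 2, had 11.34 in ADA-treated kidney alone. Nr5a2 had 10.1 inside the gene in ADA-treated kidney, and Nr0b2, the small heterodimer partner that lacks a DNA-binding domain, had no peak.

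The 5 receptors active in kidney and the other 40 overlapped widely in the share that was marked. In ADA-treated kidney 3 of 5 had an end peak, 60.0% (14.7 to 94.7%), and 27 of 40 others, 67.5% (50.9 to 81.4%). In untreated kidney 3 of 5 had one, 60.0% (14.7 to 94.7%), and 15 of 40 others, 37.5% (22.7 to 54.2%). Of all genes 46.4% and 22.8% had an end peak in the ADA-treated and untreated lists, and of these intervals only that of the other 40 in ADA-treated kidney lay above the share of all genes. With 5 genes the intervals are too wide to show a difference or a likeness.

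Within the 5, each gene had its own pattern. Ppara led both lists, as given above. Nr3c2, the mineralocorticoid receptor of the distal nephron, had 13.64 in ADA-treated kidney (3.45-fold, rank 4135) and 11.55 in untreated kidney (2.96-fold, rank 1841), in peaks at chr8:76898956-76902561 and chr8:76899143-76900131. Vdr, the vitamin D receptor, had 11.34 across its start in ADA-treated kidney alone, at chr15:97908201-97909350. Hnf4a had peaks in untreated kidney alone, as given above. Nr3c1, the glucocorticoid receptor, had no peak near an end, but deep inside the gene, 27658 and 27563 bp from the nearest end, its libraries held overlapping peaks of 15.75 (3.95-fold) and 11.41 (2.93-fold), at chr18:39489018-39491763 and chr18:39489649-39491858. The promoter table lists no start for Nr3c1, so whether this peak lies at one of its starts was not tested.

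Counted over the gene with 2 kb on both sides, 35 receptors were marked in ADA-treated kidney, 77.8% (62.9 to 88.8%), beside 51.1% of all genes. In untreated kidney 24 were, 53.3% (37.9 to 68.3%), beside 27.8%. The 7 receptors with no peak at all in either list were Rarb, Rorb, Nr1h4, Hnf4g, Esr1, Esr2 and Nr0b2. By this count 4 of 5 kidney-active receptors were marked in each list, 80.0% (28.4 to 99.5%), beside 31 of 40 others (77.5%) in ADA-treated and 20 of 40 (50%) in untreated kidney.

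A long gene has more room for a peak, and the receptors ran from 3311 bp for Nr0b2 to 734843 bp for Rora. Among the 12 receptors under 20 kb, 10 were marked over the gene or its flanks in ADA-treated kidney (83.3%, interval 51.6 to 97.9%), beside 41.7% of all genes of that length, and 7 in untreated kidney (58.3%, 27.7 to 84.8%), beside 22.0%. Of these short receptors, Nr1i3 in ADA-treated kidney and Nr1h2, Nr1h3 and Esrra in untreated kidney had peaks in the flanks only. Among the 20 receptors of 20 to 100 kb, 16 were marked in ADA-treated kidney (80.0%, 56.3 to 94.3%), beside 60.0%, and 12 in untreated kidney (60.0%, 36.1 to 80.9%), beside 32.5%. Among the 13 of 100 kb or more, 9 were marked in ADA-treated kidney (69.2%, 38.6 to 90.9%), beside 69.5%, and 5 in untreated kidney (38.5%, 13.9 to 68.4%), beside 41.8%. The interval lay above the share of all genes for receptors under 20 kb in both lists and for those of 20 to 100 kb in untreated kidney, and held it in the other classes.

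**Figure D3:**
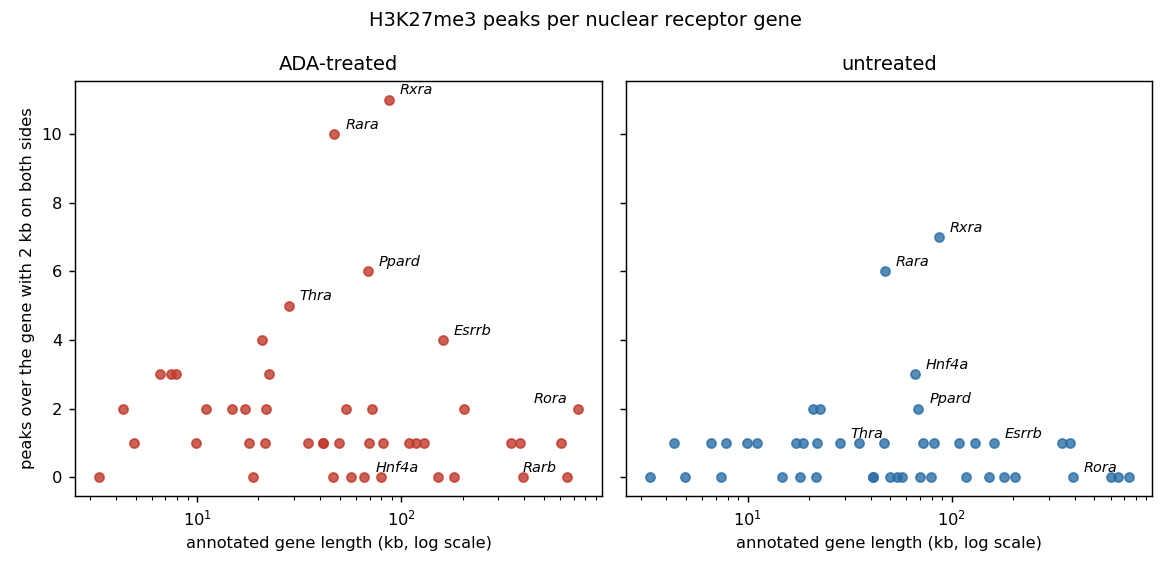
Number of H3K27me3 peaks over each receptor gene with 2 kb on both sides, against annotated gene length in kb on a log scale, in the ADA-treated (left) and untreated (right) library. Rxra and Rara lie far above the rest in both libraries, with 11 and 10 peaks in ADA-treated and 7 and 6 in untreated kidney, while several of the longest genes hold none.

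The promoter table lists 62 transcription starts for 41 of the 45 receptors, and none for Thra, Hnf4g, Nr3c1 and Nr5a1. A peak covered a listed start of 21 of these 41 receptors in ADA-treated kidney, 51.2% (35.1 to 67.1%), beside 36.8% of all genes with a listed start. In untreated kidney 8 of 41 had one, 19.5%, beside 13.2%, and the same 8 receptors were covered in both lists, beside 11.6%. In 6 of the 8 the same start was covered in both libraries (Rara, Thrb, Nr1d2, Ppara, Rxrb and Nr2c2), while Rarg and Pparg were covered at different starts. The Pparg peaks nevertheless overlapped each other. At Rarg, the untreated peak over a start overlapped an ADA-treated peak lying 125 bp from that start. Receptors have 1.51 listed starts a gene against 1.22 in all genes, which gives them more chances by gene. Counted per start, 23 of 62 lay in an ADA-treated peak, 37.1% (25.2 to 50.3%), beside 34.7% of all starts, and 11 of 62 in an untreated peak, 17.7% (9.2 to 29.5%), beside 12.2%. Both intervals held the share of all starts. With a window of 2 kb around a listed start, 29 of 41 receptors were marked in ADA-treated kidney, 70.7% (54.5 to 83.9%), beside 44.8% of all genes, and 13 in untreated kidney, 31.7% (18.1 to 48.1%), beside 20.9%. By gene, the interval of the receptors in ADA-treated kidney thus lay above the share of all genes within 2 kb of a start. For peaks directly over starts the interval held that share, as did the untreated interval within 2 kb. The count within 2 kb was not made per start, so the larger number of receptor starts was not allowed for.

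Marked receptor starts were rich in CG dinucleotides. In the 300 bases around a start, the 8 starts in a peak of both lists held a median of 25.5 CG dinucleotides (20 to 47), and the 15 in an ADA-treated peak alone a median of 25 (12 to 55). The 36 starts in no peak held a median of 7 (1 to 28). Over all starts of the table the medians were 31, 25 and 6 for the same classes, so the receptors showed the pattern of other genes. Peaks were called against a constant background, and whether input signal also differed with CG content was not tested. The 3 starts in an untreated peak alone held 6, 10 and 44, and belong to Rara, Rarg and Pparg. Each of these 3 untreated peaks overlapped an ADA-treated peak that did not reach the start. Of the 25 receptor starts with under 10 CG, 0 lay in an ADA-treated peak, which allows a share of up to 13.7%, and 1 in an untreated peak, beside 3.96% and 1.16% of all starts in that class. Of the 21 starts with 20 or more, 17 lay in an ADA-treated peak, 81.0% (58.1 to 94.6%), beside 72.6% of all starts in that class. In untreated kidney 9 did, 42.9% (21.8 to 66%), beside 27.4%, so that both intervals held the share of all starts. Starts of 20 or more made up 33.9% of receptor starts and 35.9% of all starts. Unmarked starts that are rich in CG were those of Rora, with 28, and Rorb, with 20, and 1 of the 4 starts of Esrrg, with 22. Among kidney-active receptors the counts were 30 in Ppara, 17 in Nr3c2, 15 in Vdr and 4 at both starts of Hnf4a. The start of Ppara lay in a peak of both lists, those of Nr3c2 and Vdr in an ADA-treated peak alone, and those of Hnf4a in none.

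**Figure D4:**
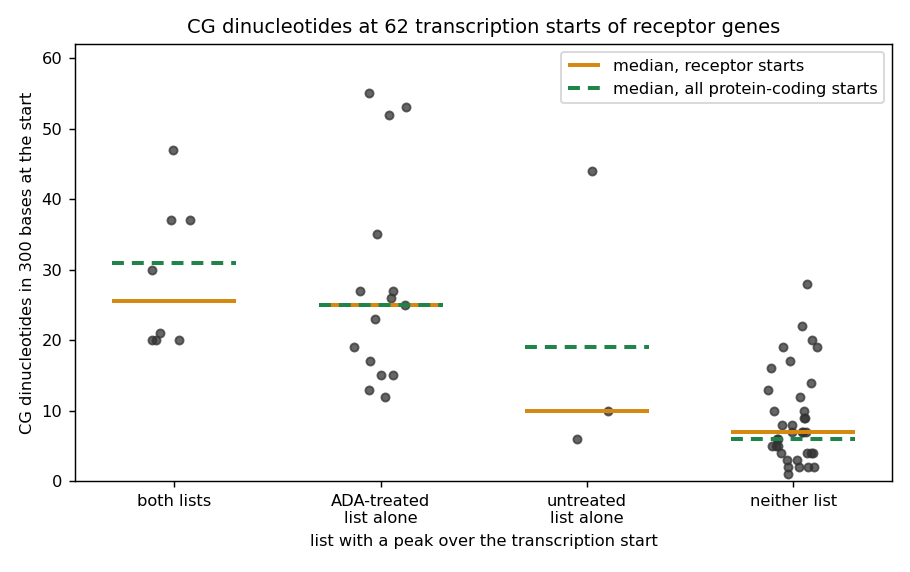
CG dinucleotides in the 300 bases at each of the 62 listed receptor starts, as 1 point a start, grouped by which library had a peak over the start, with solid lines for the receptor medians and dashed lines for the medians of all protein-coding starts. Starts in a peak of both lists all held 20 or more, and starts in no peak had a median of 7.

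Where both libraries listed a peak at the same place, the ADA-treated pileup was usually the higher. The receptors held 28 overlapping pairs of peaks in 20 genes, and the ADA-treated peak was higher in 25, beside 86.4% of the 4785 pairs over the genome. The ratio of ADA-treated to untreated pileup ran from 0.923 to 1.87 with a median of 1.19. Over the genome it ran from 0.733 to 2.66 with a median of 1.21. The receptors as a family therefore followed the whole lists in this respect, and the highest ratio was at Nr1d2. The untreated peak was the higher at Esrrb, at the inner pair of Nr4a2, and at 1 pair in Rxra (10.56 against 10.61). Of the 84 ADA-treated peaks over the receptors, 28 overlapped an untreated peak, and of the 40 untreated peaks, 27 overlapped an ADA-treated peak. Over the genome, the lists of 17612 ADA-treated and 8074 untreated peaks held 4785 overlapping pairs. Whether receptor peaks overlapped more often than other peaks was not tested. At the 15 receptors marked near an end in both lists, the strongest end peaks overlapped in 12, and those of Rarg, Nr1h2 and Esrra did not. The same count over all genes is not given here, so the 12 describe these receptors only.

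**Figure D5:**
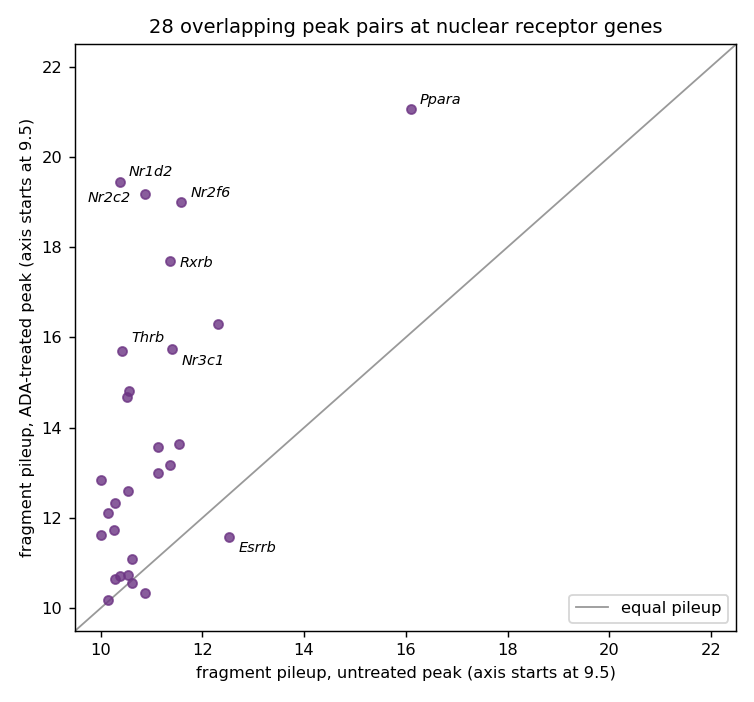
Fragment pileup of the 28 overlapping peak pairs at receptor genes, untreated on the horizontal and ADA-treated on the vertical axis, both starting at 9.5, with a line of equal pileup. Of the points, 25 lie above the line, Nr1d2, Nr2c2 and Nr2f6 farthest from it, and Esrrb lies below it.

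Genes that work with the receptors were counted in the same way, near either end. Of 17 coregulators, which bind receptors and open or close chromatin, 15 were marked in ADA-treated kidney, 88.2% (63.6 to 98.5%), beside 46.4% of all genes, and 11 in untreated kidney, 64.7% (38.3 to 85.8%), beside 22.8%. The coactivators Ncoa1 and Ncoa2 had end peaks of 19.79 and 23.22 in ADA-treated kidney and 10.84 and 11.2 in untreated kidney. The corepressor Lcor had 24.3 in ADA-treated kidney and 10.55 in untreated kidney. Marked in ADA-treated kidney alone were Hdac3, the deacetylase of the corepressor complex, at 14.04, the Mediator subunit Med1 at 13.97, Ncoa3 at 12.71 and Pprc1 at 10.99. Ncoa4 and Ncoa7 had no end peak in either list.

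The chaperones that hold steroid receptors ready for ligand were marked at all 9 genes in ADA-treated kidney (66.4 to 100%), beside 46.4% of all genes, and at 8 of 9 in untreated kidney, 88.9% (51.8 to 99.7%), beside 22.8%. Hspa8 had 15.85 and 12.37 in ADA-treated and untreated kidney, Hsp90ab1 13.04 and 12.25, Dnajb1 16.94 and 11.48, and the p23 cochaperone gene Ptges3 15.8 and 10.36. Hspa4, at 11.76, was marked in ADA-treated kidney alone. CG content was not counted for the chaperones or the coregulators, and expression was not measured. Whether either is behind their high shares was not tested.

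Enzymes and carriers that make, remove or bind receptor ligands were marked at 10 of 20 genes in ADA-treated kidney and 5 of 20 in untreated kidney, close to the shares of all genes given above. Hsd11b2, which inactivates glucocorticoid and so guards the mineralocorticoid receptor, had 15.73 and 10 in ADA-treated and untreated kidney. Dio3, which inactivates thyroid hormone, had 16.18 and 12.48. Retinoid enzymes were marked as well, with Aldh1a2 at 13.76 and 10.61, and with Rdh10 at 12.22 and 13.18, higher in untreated kidney. The vitamin D enzymes Cyp24a1 and Cyp27b1 had 10.93 and 10.16 in ADA-treated kidney alone, as did the retinoid enzymes Aldh1a3 (11.37) and Dhrs3 (10.57).

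Known target genes of the receptors were marked at 10 of 22 genes in ADA-treated kidney, 45.5%, and 4 of 22 in untreated kidney, 18.2%, again close to the background shares. The glucocorticoid targets Fkbp5 and Zbtb16 had 16.64 and 14.69 in ADA-treated kidney and 10.38 and 10.33 in untreated kidney. Scnn1a, the sodium channel subunit regulated by aldosterone, had 14.72 and 10, and Klf9 had 13.11 and 10.86. The PPAR target Angptl4 had 12.02 in ADA-treated kidney alone. Marked there alone as well were the clock gene Per1 (13.48) and the sterol exporter Abcg1 (12.85). The other 12 targets had no end peak in either list.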

How the data were processed

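H3K27me3 ChIP-seq of kidney was used as 2 deposited peak lists, 1 for the ADA-treated and 1 for the untreated library, grouped by the labels. The authors' caller was MACS 2.1.2, run for broad peaks at a p threshold of 0.001, on paired-end fragments with duplicates kept and without local background, each library against its own input, per the file headers. Background was thus constant within a list, and the deposited folds and caller values were not adjusted for input signal at each place. By the headers each library had an input of its own, of 22100010 and 23891586 fragments, while the labels list 1. Average fragment length was 293 bp (ADA-treated) and 321 bp (untreated), per the file headers. The deposited signal is the fragment pileup averaged over a peak, the deposited fold is the ratio of the pileup plus 1 to the background plus 1, and the deposited caller values, −log10 p and −log10 q, were used for ranks and for 1 alternative. No aligner is named in the sources used here, and CASAVA 1.4 and mm9 appear in the submitters' processing notes. Coordinates are nevertheless GRCm38: 34.7% and 12.2% of RefSeq GRCm38.p6 starts lay in a peak of the ADA-treated and untreated list, against 1.95% and 0.734% when peaks were compared with starts shifted by -10 kb, and 2.02% and 0.729% at 10 kb.

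Overlap of at least 1 bp was computed with Python 3.11.15, numpy 2.4.6 and pandas 2.3.3, exact intervals with scipy 1.17.1, and figures with matplotlib 3.10.9. All 45 genes matched the gene table. The promoter table gave 250 bases before and 50 bases from each start. Counting was tested on simulated peaks, and 200 of 200 planted genes were recovered. With 1 library a group, no test and no p-value between groups is given. All 45 genes are named, each with its strongest end peak (smallest caller p, then largest fold), and up to 4 genes per class of each further list. Some genes that this rule takes from the further lists are not reported here. The members, the lists and the rules were chosen with earlier results of these data known. Counts of 3 or more peaks, of overlapping pairs and of CG classes were added after seeing the data. Alternatives were windows of 0 bp, 1 kb and 5 kb, 2 kb of a listed start, a q of at most 5%, a pileup of 12 or more, lists of equal length, merging of peaks within 1 kb, and overlap of at least 50% of the shorter peak.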

Additional observations from a re-analysis of the deposited data

How the results depend on the processing

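Of 53 alternative values, 39 kept within 1.5 times the reported count, and 14 moved. With peaks required to touch an end (0 bp), 18 receptors were marked in ADA-treated kidney, 4 in untreated kidney and 4 in both, beside 31.0%, 11% and 9.12% of all genes, and 0 kidney-active receptors in untreated kidney. Within 2 kb of a listed start, 1 of 4 kidney-active receptors was marked in untreated kidney. With a pileup of at least 12, 1 receptor was marked near an end in untreated kidney and in both lists, beside 4.57% and 3.84% of all genes, and 23 and 3 over the gene in ADA-treated and untreated kidney, beside 33.9% and 5.46%. With a q of at most 5%, 1 receptor was marked in untreated kidney, near an end, over the gene and in both lists, beside 2.12%, 2.53% and 1.99% of all genes. Under both of these limits that receptor, and the 1 kidney-active receptor left in untreated kidney, was Ppara at its end. The higher share of receptors than of all genes near an end in untreated kidney was therefore lost under both limits, and rests on peaks of a pileup under 12. It was lost at 0 bp as well, where 4 of 45 receptors stood beside 11% of all genes. The same held for both lists together, with 4 of 45 beside 9.12%. The higher share thus also rests on peaks that do not touch an end. ChIP depth was similar in the libraries, and with 1 library a group the spread between libraries is unknown. No paired analysis was possible because each group has 1 library.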
